A study of Arabidopsis thaliana with 12 samples.

Results

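Seedlings that express a repressor form of GLK1 were set against seedlings that lack both GLK genes, on 8 of the 12 one-colour Agilent arrays of an Arabidopsis thaliana series. The 4 arrays labelled 35S_GLK1-SRDX and the 4 arrays labelled glk1_glk2 were taken by genotype from the sample titles, and all 20640 measured genes were compared. The 35S:GLK1-SRDX plants carry, under the 35S promoter, which is active in most tissues, GLK1 joined to SRDX, a short repression domain taken from the SUPERMAN protein. The glk1 glk2 plants are mutant in both GLK1 and GLK2. The other 4 arrays, from wild-type plants, give the level from which each line departs. All plants were Columbia-0, 2 weeks old, and grew at 23 °C in 16 h light and 8 h dark on MS agar with 1% sucrose, with no treatment. RNA came from whole seedlings, and many seedlings were harvested for a sample. The labels do not say how many transgenic lines or separate cultures stand behind the 4 samples of a group. A p-value of the fit therefore speaks of the spread of arrays within groups, pooled over all groups including wild type. Part of that spread may be technical.

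GOLDEN2-LIKE 1 and 2 (GLK1 and GLK2) are a pair of partly redundant transcription factors that activate nuclear genes for light-harvesting proteins and chlorophyll synthesis, and plants without both are pale green. A chimeric repressor keeps the DNA-binding part of a transcription factor and turns down the genes it binds, whether or not related factors are present, so it is often used in place of a multiple mutant. The comparison of the lines asks where such dominant repression and loss of the genes leave different transcript levels. The series title names closing of stomata and tolerance to an air pollutant.

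Levels below are log2 of a probe's signal relative to the 75th percentile of its array, so a difference of 1 is a 2-fold change and a level of 1 probe cannot be set against that of another. A gene was called higher or lower when limma's adjusted p was under 0.05 over all 20640 genes. Between 63.9% and 68.4% of an array's probes were well above background. Markers of several tissues passed the filter on dim probes, with 18 of 18 root markers, 8 of 8 epidermis markers, 4 of 4 phloem markers and 19 of 20 stomatal lineage genes measured. Replicates 3 and 4 of glk1 glk2 stood apart from their group, with mean correlations to its other arrays of 0.964 and 0.967, against 0.980 to 0.991 for the remaining 10 arrays. All 4 GLK1-SRDX arrays lay on slide 3 and the arrays of the other groups on slides 1 and 2, so the slide and the GLK1-SRDX genotype cannot be told apart. Slides 1 and 2 had 2 arrays each of wild type and of the mutant, and between them limma called 0 of 20640 genes (1211 at an unadjusted p under 0.05), with a median absolute change of 0.12, against 0.18 between the lines. The mutant arrays on slide 2 were replicates 3 and 4, the arrays that stood apart. A contrast of slides does not show arrays of a slide that depart in opposite directions. In whole seedlings, fewer cells of a type and less RNA per cell cannot be told apart.

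The levels of both GLK genes separated the lines. GLK2 (AT5G44190) was at 2.95, 3.03, 2.72 and 2.74 on the GLK1-SRDX arrays, at -5.47, -5.51, -5.34 and -4.78 on the glk1 glk2 arrays and between 1.85 and 2.54 in wild type. GLK1 (AT2G20570) was at 1.02, 1.07, 0.91 and 0.76 in GLK1-SRDX, at -1.97, -2.41, -2.85 and -1.30 in glk1 glk2 and between -0.15 and 0.48 in wild type. For both genes every GLK1-SRDX array lay above every glk1 glk2 array. The differences were 8.14 ± 0.19 (SE, n = 4 per line, limma adjusted p = 2.00e-09) for GLK2 and 3.07 ± 0.28 (adjusted p = 0.000233) for GLK1. An exact two-sided permutation test of each gene gave p = 0.0286, the smallest that 70 arrangements allow. Both genes are mutated in glk1 glk2, so these values check the genotype labels and are no finding about the lines.

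The largest difference of all genes was in SUP (AT3G23130), the SUPERMAN gene itself, a zinc-finger factor of flower development. SUP stood at 7.17, 7.18, 7.18 and 6.61 on the GLK1-SRDX arrays. In glk1 glk2 it was between -10.13 and -8.28, well above background on 0 of 4 arrays, and in wild type between -9.72 and -6.23, well above background on 2 of 4. GLK1-SRDX was therefore at least 14.50 higher than glk1 glk2 on the log2 scale (adjusted p = 1.71e-06). Whether the probes for SUP and GLK1 read the transgene was not tested.

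**Figure D1:**
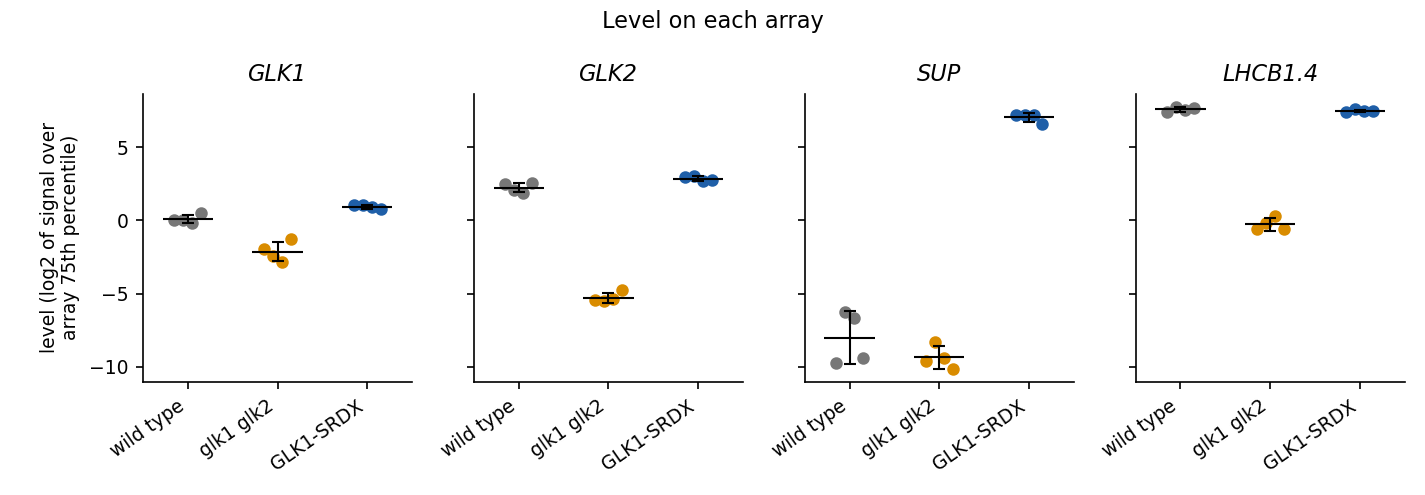
Level of GLK1, GLK2, SUP and LHCB1.4 on each array (log2 of signal over the array's 75th percentile; points are arrays, horizontal lines are group means and bars are SD, n = 4). GLK2 lay between 2.72 and 3.03 in GLK1-SRDX and between -5.51 and -4.78 in glk1 glk2, and LHCB1.4 between 7.42 and 7.58 and between -0.61 and 0.28.

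In all, 1911 of 20640 genes differed between the lines, which is 9.26% of those tested. GLK1-SRDX was higher for 1172 genes (5.68%) and lower for 739 (3.58%). At least 2-fold differences were called for 488 genes (2.36%), 257 of them higher (1.25%) and 231 lower (1.12%). The arrays of the lines did not overlap for 3559 genes (17.2%), with GLK1-SRDX above for 9.86% and below for 7.38% of genes. Against wild type the same fit called 671 genes in glk1 glk2 (3.25%, with 2.14% higher and 1.11% lower) and 2972 in GLK1-SRDX (14.4%, with 8.10% higher and 6.30% lower). These counts share the wild-type arrays, so they are given side by side only. The median over all genes was -0.0052, a value that depends on how the arrays are scaled (0.28 with the authors' values). With genes split by mean level into 4 equal bins, from dim to bright, 7.56%, 6.74%, 4.03% and 4.38% were called higher. Over chromosomes 1 to 5 that share ran from 5.12% to 5.85%. Without glk1 glk2 replicate 3 the count was 2684, without replicate 1 of that group 1084, and without GLK1-SRDX replicate 1, 2 or 3 it was 1005, 1116 and 1067. With the replicate numbers as a block it was 726.

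**Figure D2:**
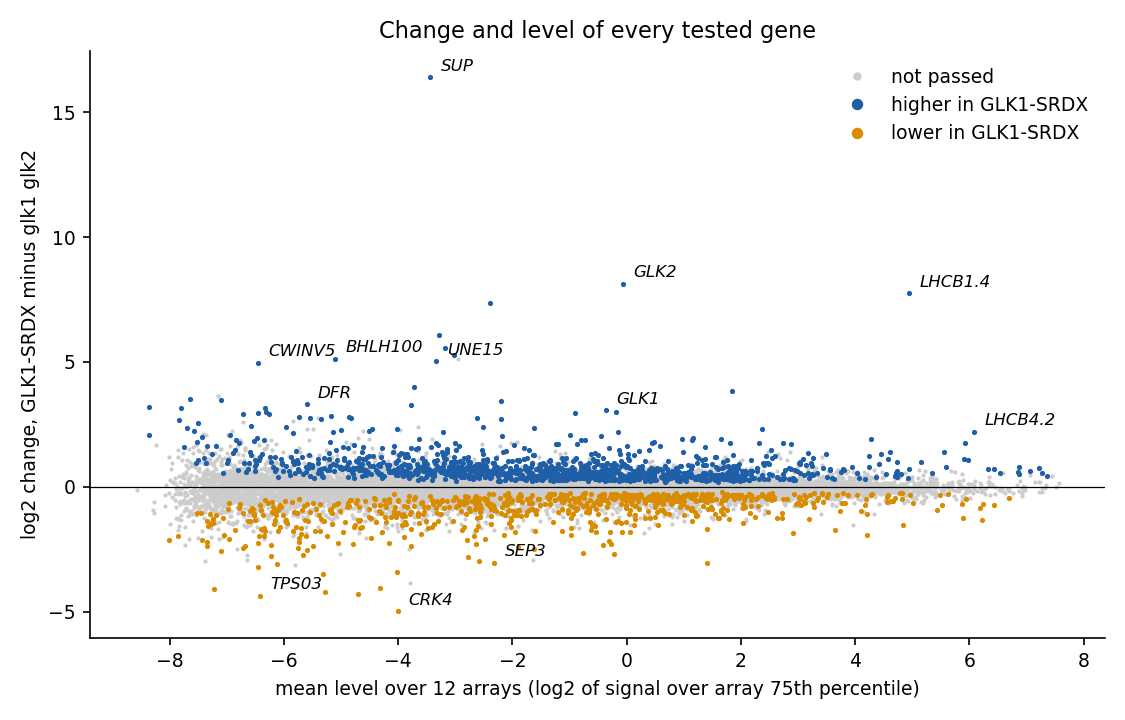
Difference between the lines (log2, GLK1-SRDX minus glk1 glk2) against the mean level over 12 arrays (log2 of signal over the array's 75th percentile) for 20640 genes, with the 1172 genes called higher and the 739 called lower in colour and the rest in grey. GLK2 and LHCB1.4 lie far above the cloud, at 8.14 and 7.76, as does SUP, which is plotted at its fitted value and for which only the bound of 14.50 is known.

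Many genes of the light-harvesting antenna, whose proteins bind chlorophyll around the photosystems, were higher in GLK1-SRDX than in the double mutant. Of 21 measured antenna genes 12 were higher, 1 was lower and 8 did not pass, with a median of 0.59. The lists' medians and counts are read against the median of -0.0052 and the 5.68% and 3.58% called over all genes. The widest gap was in LHCB1.4 (AT2G34430), a main light-harvesting protein of photosystem II. It stood at 7.42, 7.58, 7.45 and 7.49 in GLK1-SRDX, at -0.60, -0.16, 0.28 and -0.61 in glk1 glk2 and at 7.38, 7.77, 7.55 and 7.70 in wild type. The GLK1-SRDX arrays thus lay within the wild-type range and far above the mutant (7.76 ± 0.18, adjusted p = 2.00e-09), and the interval of the GLK1-SRDX difference from wild type was -0.51 to 0.28. LHCB1 copies are near-identical, and whether this probe reads 1 copy alone was not tested.

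LHCB4.2, a minor antenna protein of photosystem II, was at 6.85, 6.90, 6.74 and 6.76 in GLK1-SRDX and at 4.64, 4.81, 4.36 and 4.58 in glk1 glk2. The groups did not overlap, and the difference was 2.21 ± 0.11 (adjusted p = 4.69e-06). Against wild type LHCB4.2 fell by 2.25 in the mutant (adjusted p = 5.27e-06) and stood at -0.036 in GLK1-SRDX (adjusted p = 0.863). LHCB3, of the same photosystem, was 3.39-fold higher in GLK1-SRDX than in the mutant (adjusted p = 0.000906). Of photosystem I, LHCA6 (2.48-fold, adjusted p = 0.0201) and LHCA2 (2.12-fold, adjusted p = 0.00122) were higher. LHCB4.3 went the other way. It was 1.65-fold lower in GLK1-SRDX than in glk1 glk2 (adjusted p = 0.0384), standing at -1.51 against wild type in GLK1-SRDX (adjusted p = 0.000722) and at -0.79 in the mutant (adjusted p = 0.0486). The LHCB2 genes, which code for the partner of LHCB1 in the main antenna, had differences of 0.68, 1.44 and 1.41 for LHCB2.1, LHCB2.2 and LHCB2.3 and did not pass (adjusted p = 0.599, 0.168 and 0.159). Their glk1 glk2 arrays were spread widely, from 0.40 to 2.46 for LHCB2.3. Leaving out single arrays ended the calls of LHCA1, LHCA3, LHCA4, LHCA6, LHCB1.5, LHCB4.3 and LHCB5 for 8, 1, 11, 3, 6, 7 and 5 of the 12 arrays (adjusted p up to 0.125). Between 6 and 11 antenna genes were then called higher. Without glk1 glk2 replicate 3 there were 11, with a median of 0.43.

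Some subunits of the photosystem cores, where charge separation takes place, were higher in GLK1-SRDX as well. Of 23 measured nuclear genes 9 were higher, 0 were lower and 14 did not pass (median 0.46). PSAE2, a stromal subunit of photosystem I, was at 4.78, 4.88, 4.60 and 4.89 in GLK1-SRDX and at 2.85, 3.15, 2.59 and 2.97 in glk1 glk2, with no overlap. It was 3.73-fold higher (1.90 ± 0.12, adjusted p = 2.20e-05). PSAH2 was 3.37-fold higher (adjusted p = 0.00808) and PSAE1 2.65-fold (adjusted p = 0.000703), both also of photosystem I. PSBQ2, of the oxygen-evolving complex of photosystem II, was 2.47-fold higher (adjusted p = 0.000668). It was below wild type in both lines, at -1.16 in GLK1-SRDX (adjusted p = 0.000722) and -2.46 in the mutant (adjusted p = 1.26e-05). PSBS, the sensor of energy quenching, PSBR and PSBO1 had differences of 0.0016, -0.050 and 0.20 and did not pass (adjusted p = 0.999, 0.890 and 0.375). Without glk1 glk2 replicate 3 the median was 0.28 and 9 genes were called. In the electron transport list PETE1, a plastocyanin, was 2.63-fold higher (1.4 ± 0.15, adjusted p = 0.000527), and the other 12 of 13 genes did not pass (median 0.15).

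The chlorophyll synthesis genes that passed had the same direction. Of 26 measured genes 8 were higher in GLK1-SRDX, 0 were lower and 18 did not pass (median 0.51). The 8 run along the pathway, from HEMA1, the glutamyl-tRNA reductase at its start (1.62-fold, adjusted p = 0.0184), through HEMC, HEME1 and HEME2 of the tetrapyrrole part and CHLI2 of magnesium chelatase, to PORB, AT1G74470 and CAO. PORB, a light-dependent protochlorophyllide reductase, was at 5.21, 5.12, 5.17 and 5.10 in GLK1-SRDX and at 4.3, 4.28, 3.69 and 4.29 in glk1 glk2. The lines did not overlap, and the difference was 1.01 ± 0.17 (adjusted p = 0.00536). HEME1, a uroporphyrinogen decarboxylase, was 1.96-fold higher (adjusted p = 0.00716). CAO, which makes chlorophyll b, was 2.45-fold higher (adjusted p = 0.0404), a call that ended without any of 8 single arrays (adjusted p up to 0.104). GUN4, an activator of magnesium chelatase, was at 1.17 and just missed the threshold (adjusted p = 0.0504). PORA, the form of the reductase made in the dark, was low in both lines, at -5.09 in glk1 glk2 (adjusted p = 0.00104) and -4.39 in GLK1-SRDX (adjusted p = 0.000707) against wild type, and the lines did not differ beyond their spread (0.70, 95% interval -0.50 to 1.90). GUN5, the large subunit of magnesium chelatase, had a difference of -0.068 (adjusted p = 0.907). Without GLK1-SRDX replicate 2, 3 of the genes were called, without glk1 glk2 replicate 3, 7 (median 0.32), and with the background corrected another way (normexp), 0.

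**Figure D3:**
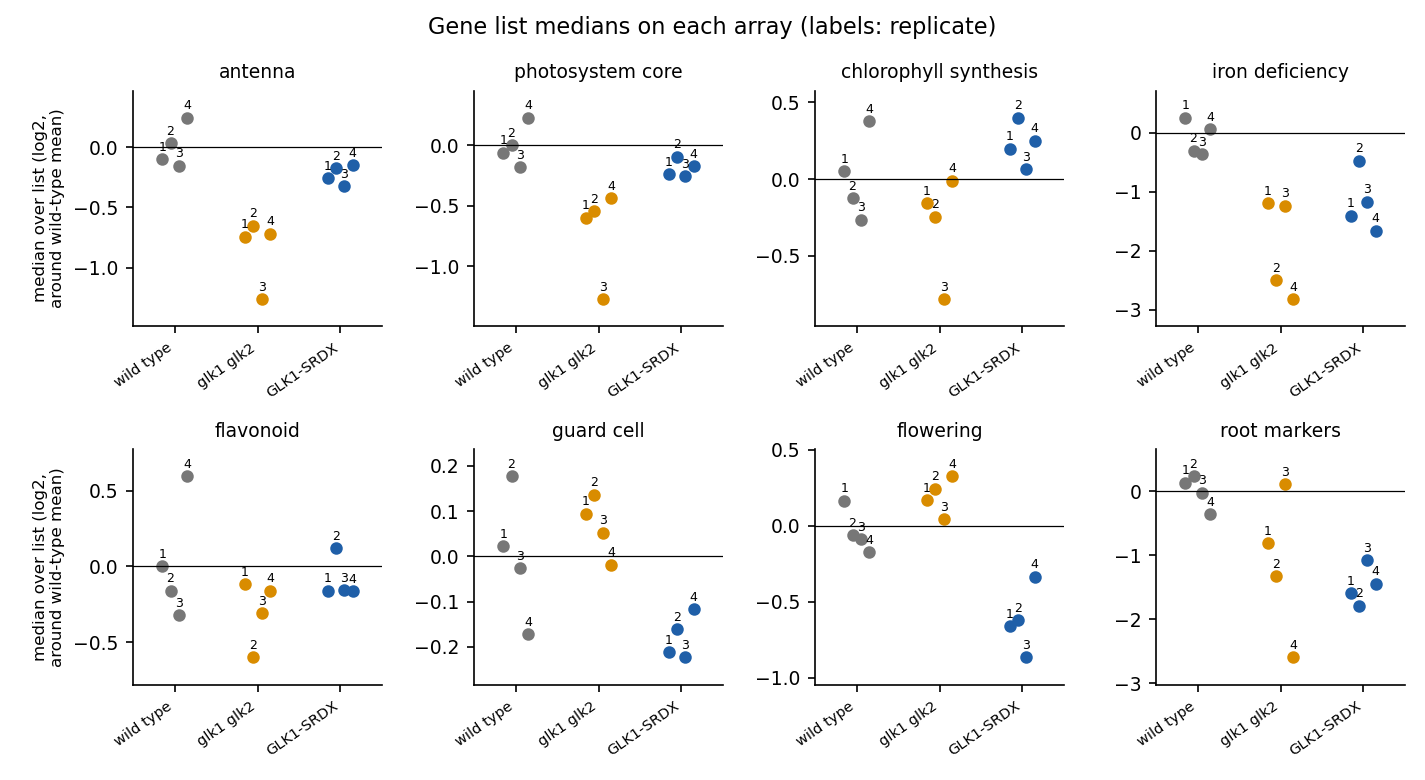
Median level of 8 gene lists on each array, around the wild-type mean (log2), with replicate numbers beside the points. Antenna medians lay between -0.32 and -0.15 in GLK1-SRDX and between -1.26 and -0.65 in glk1 glk2, flowering medians between -0.87 and -0.34 and between 0.044 and 0.33, while root marker medians of the lines overlapped.

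Other parts of chloroplast function gave few calls. Of 19 Calvin cycle genes, which fix carbon, 0 were higher and 1 was lower (median -0.20). That gene, RBCS2B, a small subunit of Rubisco, was at 5.33, 5.66, 5.39 and 5.71 in GLK1-SRDX and at 7.05, 7.11, 6.38 and 6.83 in glk1 glk2. Every GLK1-SRDX array was below every mutant array and below wild type (6.20 to 6.45), and the difference was -1.32 ± 0.16 (adjusted p = 0.000906). Among 12 carotenoid genes BCH1, a beta-carotene hydroxylase, was 2.16-fold lower (adjusted p = 0.0216), a call that ended without any of 5 single arrays (adjusted p up to 0.0684), and 11 did not pass. The arrays of the lines overlapped for BCH1. Of 10 genes for protein import into plastids limma called 0 (1 at an unadjusted p under 0.05), and their changes ran from -0.16 to 0.26. Of 19 regulators of greening 3 were higher, GLK1, GLK2 and BBX16, and 16 did not pass. GLK1 and GLK2 are the genes mutated in glk1 glk2, so their calls reflect the genotypes compared, and of the others only BBX16 was called. BBX16, a B-box factor, was at -0.63, -0.90, -0.92 and -0.51 in GLK1-SRDX and at -2.25, -2.87, -3.45 and -1.88 in glk1 glk2. It lay below wild type (0.43 to 1.80) in both lines, at -1.71 (adjusted p = 0.0115) and -3.58 (adjusted p = 0.000677), and the difference between the lines was 1.87 ± 0.36 (adjusted p = 0.00949). Of the 14 measured chlorophyll breakdown genes 0 were called by limma (3 at an unadjusted p under 0.05), with PAO, which opens the chlorophyll ring, closest at 0.79 (adjusted p = 0.0559).

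Some iron-deficiency genes, which plants turn on to take up and move iron, were also higher in GLK1-SRDX than in the mutant, and most did not pass. Of 19 measured genes 5 were higher, 0 were lower and 14 did not pass. The median was 1.06, or 0.44 with bounds in place of fits for genes below background. Both lines lay below wild type on this list. The fitted median against wild type was -2.34 in glk1 glk2 (10 genes lower, 0 higher) and -1.25 in GLK1-SRDX (5 lower, 0 higher). BHLH100 (AT2G41240), an iron-deficiency transcription factor, was at -3.63, -2.60, -6.01 and -5.35 in GLK1-SRDX, between -10.05 and -9.03 in glk1 glk2, where 0 of 4 arrays were well above background, and between -3.19 and 0.19 in wild type. GLK1-SRDX was at least 8.37-fold higher than the mutant (adjusted p = 0.00503). It was 8.02-fold lower than wild type (adjusted p = 0.0415), with some overlap of arrays. Its relative BHLH101 was at -0.68, -0.01, -0.73 and -1.21, against -2.50, -3.34, -2.76 and -2.38 in the mutant (4.26-fold, adjusted p = 0.0212). NAS4, which makes the metal chelator nicotianamine, was 3.06-fold higher (adjusted p = 0.0202), FRO3, a ferric reductase, 1.63-fold (adjusted p = 0.0234) and MYB10, a factor of the same response whose arrays overlapped, 2.09-fold (adjusted p = 0.0254). The iron transporter IRT1 (2.41, adjusted p = 0.0844) and the reductase FRO2 (2.26, adjusted p = 0.0502) did not pass. Both were spread over the mutant arrays, IRT1 from -8.27 to -3.57. Calls of BHLH101, NAS4, FRO3 and MYB10 ended without any of 4, 3, 4 and 5 single arrays (adjusted p up to 0.0796). Without glk1 glk2 replicate 3, 10 genes were called (median 1.35), without GLK1-SRDX replicate 1 or 3, 1, and with the replicate block 1. Markers of root tissue were spread over the same arrays. Their median over 18 genes was between -1.79 and -1.08 in GLK1-SRDX and at -0.81, -1.33, 0.11 and -2.60 in glk1 glk2, so the lines overlapped, and the part of root tissue in the iron result was not tested. CASP5, a protein of the Casparian strip, was the 1 root marker called, at least 9.0-fold lower in GLK1-SRDX (adjusted p = 0.0150; above background on 2 of 4 arrays; adjusted p = 0.0508 without GLK1-SRDX replicate 1). The arrays of the lines overlapped for CASP5.

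Iron storage and iron-sulfur genes gave 1 call of 5. NEET, an iron-sulfur protein, was at 2.79, 3.23, 2.58 and 3.51 in GLK1-SRDX and at 5.05, 4.72, 3.98 and 5.26 in glk1 glk2. The GLK1-SRDX arrays were all below the mutant's and spanned the wild-type range of 2.90 to 3.25, with a difference of -1.73 ± 0.27 (adjusted p = 0.00372). Among 21 genes that handle reactive oxygen 4 were higher and 2 lower (median -0.15). The iron superoxide dismutases went apart. FSD2, in the chloroplast, was at 1.59, 1.62, 1.61 and 1.46 in GLK1-SRDX against 0.69, 0.75, 0.60 and 0.94 in the mutant (1.77-fold higher, adjusted p = 0.00155). FSD1 was 1.56-fold lower (adjusted p = 0.00520), being 0.93 above wild type in the mutant (adjusted p = 0.00204) and 0.29 in GLK1-SRDX (adjusted p = 0.0983). The peroxidase APX1 (1.44-fold, 1 mutant array not used because its spot was marked) and the catalases CAT1 (at least 1.99-fold) and CAT3 (1.55-fold) were higher and the copper/zinc dismutase CSD1 1.26-fold lower (adjusted p = 0.0352, 0.0414, 0.0293 and 0.0344). Calls of these 4 each ended without any of 5 or more single arrays (adjusted p up to 0.112).

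**Figure D4:**
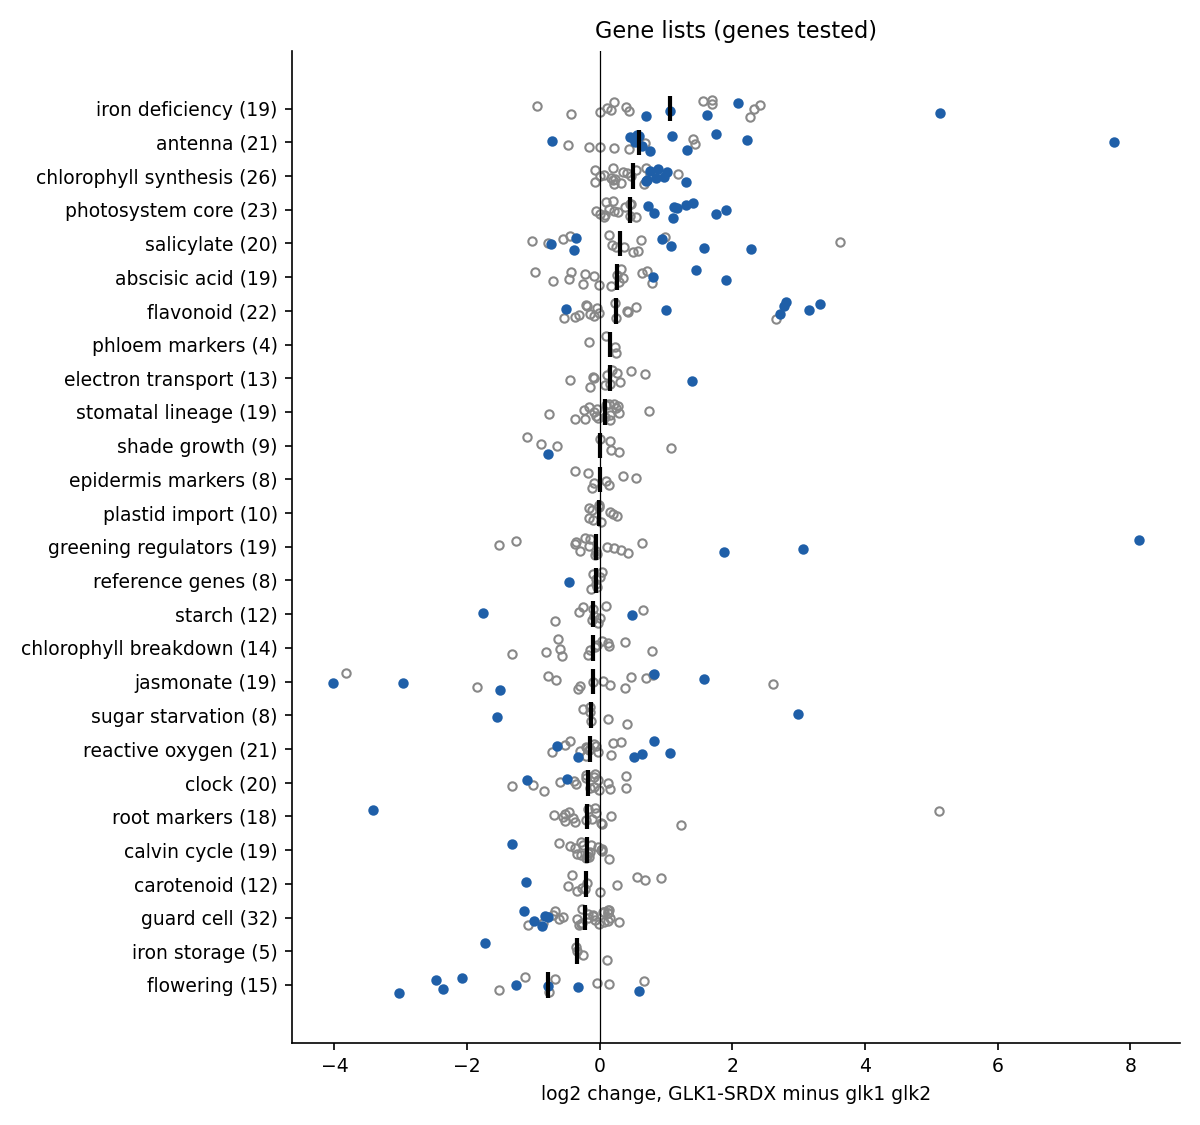
Difference between the lines (log2, GLK1-SRDX minus glk1 glk2) for the members of 27 gene lists, with the number tested in brackets. Filled points were called, open points were not, and black bars are list medians, from 1.06 for iron deficiency to -0.79 for flowering.

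Several genes of anthocyanin synthesis were higher in GLK1-SRDX. Of 22 measured flavonoid and anthocyanin genes 6 were higher in GLK1-SRDX, 1 was lower and 15 did not pass (median 0.24). DFR, dihydroflavonol reductase, was at -4.83, -3.84, -5.01 and -4.92 in GLK1-SRDX, between -8.87 and -6.87 in glk1 glk2 and between -5.05 and -3.03 in wild type. The GLK1-SRDX arrays lay in the wild-type range and above the mutant's, at least 6.14-fold higher (adjusted p = 0.00374; 2 of 4 mutant arrays above background). LDOX, which acts after DFR, was at least 4.41-fold higher (adjusted p = 0.00134; 0 of 4). The sugar- and acyl-adding enzymes UGT79B1 and AT5MAT were higher, by at least 6.33-fold and by 6.57-fold (adjusted p = 0.00140 and 0.000378; 2 of 4 each). TT19, a glutathione transferase that carries anthocyanins to the vacuole, was at least 6.66-fold higher (adjusted p = 0.00311; 3 of 4) and AT4G14090 2.01-fold (adjusted p = 0.00859). The first enzymes of the pathway, TT4 (0.54), TT5 (0.43) and F3H (-0.0087), did not pass (adjusted p = 0.376, 0.549 and 0.987). TT7, flavonoid 3'-hydroxylase, was 1.43-fold lower (adjusted p = 0.0310, up to 0.0929 without single arrays). PAP1, a MYB activator of late anthocyanin genes, did not pass (adjusted p = 0.170), with mutant arrays from -9.54 to -4.99, 1 of 4 of them above background. With only the genes that were above background on all 12 arrays the median was -0.063 and 1 gene was called, a filter that removes genes that are dim in 1 line. With normexp 0 were called.

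Some guard-cell genes were lower in GLK1-SRDX than in the double mutant, and most did not pass. Of 32 measured genes of stomatal movement 0 were higher, 5 were lower and 27 did not pass (median -0.22). KAT1, through which potassium enters guard cells, was at -2.93, -2.42, -3.40 and -2.43 in GLK1-SRDX and at -1.79, -1.09, -2.10 and -1.64 in glk1 glk2, with no overlap, beside a wild-type range of -1.28 to -0.27. It was 2.2-fold lower (-1.14 ± 0.29, adjusted p = 0.0316). KAT2, a channel of the same kind, was at -4.91, -4.33, -5.03 and -4.39 against -3.58, -3.94, -4.17 and -3.69 (1.77-fold lower, adjusted p = 0.0164). MYB60, a guard-cell factor of stomatal opening, was 1.83-fold lower (adjusted p = 0.00662). The kinase BLUS1, which acts in opening under blue light, was 1.71-fold lower (adjusted p = 0.0365). ALMT6, a malate channel of the vacuole, was 1.98-fold lower (adjusted p = 0.000757). It stood 0.89 above wild type in the mutant (adjusted p = 0.00333) and at -0.091 in GLK1-SRDX (adjusted p = 0.628).

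Channels and a kinase of stomatal closing did not pass. The outward potassium channel GORK had a difference of 0.070 (95% interval -0.26 to 0.40), the anion channel SLAC1 one of -0.31 (-0.63 to 0.0064) and the kinase OST1 one of 0.12 (-0.19 to 0.42), with adjusted p = 0.833, 0.214 and 0.671. AKT1, a potassium uptake channel, was at -0.62 (-1.25 to 0.018, adjusted p = 0.218). Of 19 stomatal lineage genes limma called 0 (2 at an unadjusted p under 0.05; median 0.078). The closest was HDG2 at -0.38 (adjusted p = 0.0805), and FAMA, a factor of guard-cell identity, was at -0.24 (adjusted p = 0.218). The calls of KAT1, KAT2 and BLUS1 ended without any of 5, 2 and 6 single arrays (adjusted p up to 0.107), and 2 to 6 genes of the list were called when 1 array was left out. On the authors' scale all genes moved by 0.28, and the list then had a median of 0.065 and 1 call.

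**Figure D5:**
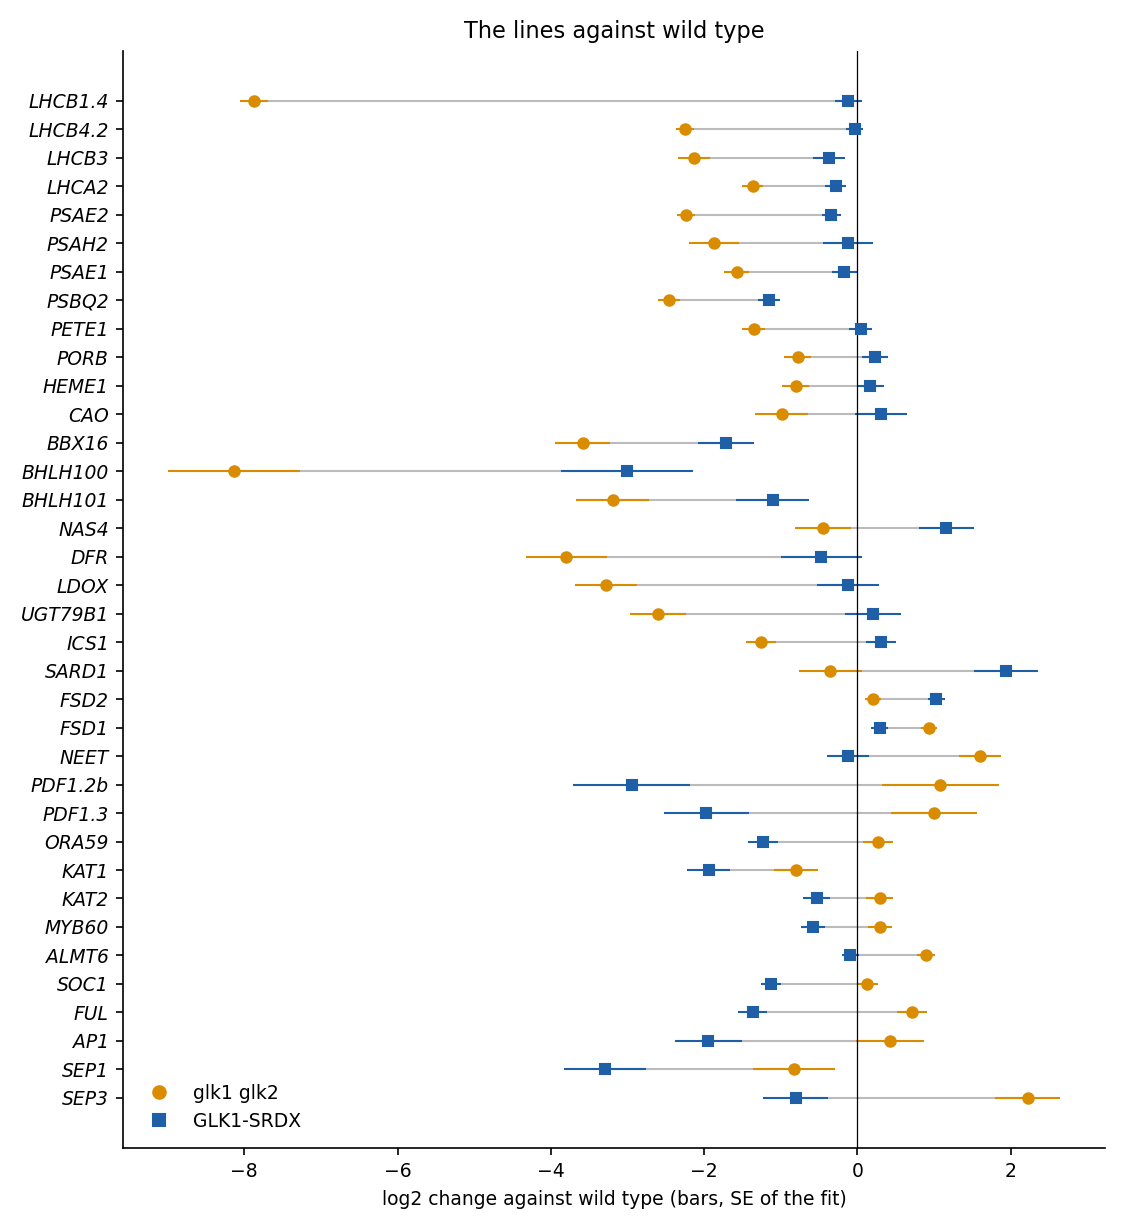
Change against wild type (log2, ± SE of the fit, n = 4 per group) of the genes named at left, in glk1 glk2 (circles) and GLK1-SRDX (squares), joined by a line for each gene and with genes below background at fitted values. LHCB1.4 lies at -7.87 in the mutant and -0.12 in GLK1-SRDX, PSBQ2 and BBX16 lie below 0 in both lines, and SOC1 lies at 0.13 in the mutant and -1.13 in GLK1-SRDX.

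Several genes of the transition to flowering were lower in GLK1-SRDX. Of 15 measured flowering genes 7 were lower, 1 was higher and 7 did not pass. The median was -0.79, or -0.68 with bounds in place of fits for genes below background. SOC1, a MADS-box integrator of flowering signals, was at 1.72, 1.95, 1.58 and 2.08 in GLK1-SRDX and at 3.18, 3.26, 2.75 and 3.18 in glk1 glk2. The lines did not overlap (2.39-fold, -1.26 ± 0.13, adjusted p = 0.000527), and against wild type SOC1 stood at -1.13 in GLK1-SRDX (adjusted p = 0.000571) and at 0.13 in the mutant (adjusted p = 0.625). SEP3, a floral organ factor, was at -4.06, -3.41, -4.10 and -2.81 in GLK1-SRDX and at -0.71, 0.24, -0.11 and -1.68 in glk1 glk2. Wild type lay between them (-3.43 to -2.46), overlapping GLK1-SRDX, and the difference of the lines was -3.03 ± 0.42 (adjusted p = 0.00211). FUL, which acts beside SOC1, was 4.24-fold lower (adjusted p = 0.000266). AP1, a factor of floral meristem identity, was at least 1.93-fold lower (adjusted p = 0.00823; above background on 0 of 4 GLK1-SRDX arrays) and SEP1 at least 3.27-fold (adjusted p = 0.0171; 1 of 4). AP1 was above background on 2 of 4 wild-type and 4 of 4 mutant arrays, so it passed the filter on dim probes through the mutant arrays. The call of AP1 is therefore a description. SPL3, a promoter of flowering, was 1.73-fold lower and SVP, a repressor of it, 1.26-fold, while SPL4, a close relative of SPL3, was 1.5-fold higher (adjusted p = 0.0258, 0.0248 and 0.0377). For SVP 1 wild-type array was not used because its spot was marked. FT, the mobile flowering signal, which was above background on 1 of 4 GLK1-SRDX arrays, and FLC, a repressor, at 0.67, did not pass (adjusted p = 0.228 and 0.144). Single arrays ended the calls of SEP1, SPL3, SVP and SPL4 (4, 4, 5 and 8 of 12; adjusted p up to 0.0902), and the replicate block left 3 lower genes and put SEP3 at adjusted p = 0.0535.

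Defence genes split. In the jasmonate list of 19 measured genes 2 were higher, 3 were lower and 14 did not pass (median -0.11). ORA59, an ERF factor that activates plant defensins, was at -0.51, -0.77, -1.11 and -0.75 in GLK1-SRDX and at 1.15, 0.11, 0.81 and 0.80 in glk1 glk2. With no overlap it was 2.84-fold lower (-1.50 ± 0.20, adjusted p = 0.00144). The defensins PDF1.2b (at least 13.9-fold, adjusted p = 0.00873; 3 of 4 GLK1-SRDX arrays above background) and PDF1.3 (7.83-fold, adjusted p = 0.00854) were lower too, as was PDF1.2c, which is not on the list (7.08-fold, adjusted p = 0.00757). Another defensin off the list, PDF1.5, was called higher instead. The copies that were lower are similar in sequence, and whether their probes read them separately was not tested. Jasmonate synthesis went up at 2 of its steps, with AOS 1.76-fold (adjusted p = 0.0202) and AOC1 2.97-fold higher (adjusted p = 0.0362). The calls of AOS and AOC1 ended without any of 2 and 7 single arrays (adjusted p up to 0.0992).

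Of 20 salicylate genes 4 were higher, 3 were lower and 13 did not pass (median 0.30, or 0.21 with bounds in place of fits for genes below background). ICS1, which makes the salicylate precursor isochorismate, was at -0.98, -1.12, -1.32 and -1.27 in GLK1-SRDX and at -2.97, -2.77, -2.13 and -3.10 in glk1 glk2. No array overlapped (2.97-fold higher, 1.57 ± 0.19, adjusted p = 0.00111), and wild type lay beside GLK1-SRDX at -1.73 to -1.23. SARD1, an activator of ICS1, was 4.88-fold higher (adjusted p = 0.00737), EDS5, a transporter of the pathway, 1.92-fold (adjusted p = 0.00563) and the marker PR1 at least 1.55-fold (adjusted p = 0.0244; 0 of 4 mutant arrays above background; adjusted p = 0.0650 without glk1 glk2 replicate 2). PR1 was above background on 1 of 4 wild-type and 4 of 4 GLK1-SRDX arrays, so it passed the filter on dim probes through the GLK1-SRDX arrays. The immune regulators PAD4 (1.66-fold), SAG101 (1.28-fold) and NPR1 (1.31-fold) were lower (adjusted p = 0.0443, 0.0463 and 0.0294). Their calls ended without any of 9, 9 and 6 single arrays (adjusted p up to 0.130), and the probes of SAG101 disagreed, with a difference of 0.051 for their mean.

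Abscisic acid genes gave 3 rises and 0 falls of 19 (median 0.25). COR15A, a chloroplast protein induced by cold and abscisic acid, was at 2.1, 1.82, 2.24 and 1.69 in GLK1-SRDX and at -0.25, -0.06, -0.20 and 0.74 in glk1 glk2, 3.75-fold higher with no overlap (adjusted p = 0.00262). HAI1, a phosphatase of the signalling path, was 2.73-fold higher (adjusted p = 0.00791) and CYP707A1, which breaks the hormone down, 1.74-fold (adjusted p = 0.0216, and 0.0683 and 0.0626 without replicate 1 of either line). RAB18 (0.31), RD29A (0.72) and RD29B (-0.98), widely used response genes, did not pass (adjusted p = 0.493, 0.240 and 0.136). DIN2, a beta-glucosidase induced in the dark and by sugar starvation, was at 2.32, 1.70, 2.14 and 1.31 in GLK1-SRDX and at -0.39, -1.40, -0.94 and -1.73 in glk1 glk2. Wild type (-2.11 to 0.11) lay with the mutant, and GLK1-SRDX was 7.90-fold above the mutant (adjusted p = 0.00361). DIN11, induced by the same conditions, was 2.93-fold lower (adjusted p = 0.0271, up to 0.0810 without single arrays), and 6 of the 8 starvation genes did not pass.

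Further lists gave 1 or 2 calls each. Of 12 starch genes BAM5, a beta-amylase, was 3.37-fold lower (adjusted p = 0.00938) and ISA3, a debranching enzyme, 1.4-fold higher (adjusted p = 0.0231). Of 20 clock genes RVE1 (2.13-fold, adjusted p = 0.0373) and PRR5 (1.41-fold, adjusted p = 0.0233) were lower, and the morning genes CCA1 (-1.0) and LHY (-0.83) did not pass (adjusted p = 0.334 and 0.425). Of 9 shade and growth genes HFR1, a brake on shade growth, was 1.72-fold lower (adjusted p = 0.00455) and lay below wild type in both lines. Calls of ISA3, RVE1 and PRR5 ended without any of 4, 7 and 5 single arrays (adjusted p up to 0.105). Limma called 0 of the 8 epidermis and 4 phloem markers (2 and 0 at an unadjusted p under 0.05), with medians of 0.0019 and 0.16. Of 8 reference genes ACT2, an actin, was 1.38-fold lower (adjusted p = 0.0231, up to 0.0662 without single arrays), and the other 7 ran from -0.14 to 0.028.

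Of the called genes that have a symbol and no overlap between the arrays of the lines, the 12 largest fitted rises in GLK1-SRDX were in SUP, GLK2, LHCB1.4, BHLH100, UNE15, CWINV5, LTP4, DFR, MRU1, EXO70H3, LDOX and GLK1. A fitted value is no measure of size for genes below background in a line, so the folds of most of those genes are given as bounds and their order is not known. For UNE15, AT5MAT and AT1G13650, with some mutant arrays below background, a plain fitted fold is printed, and the same limit holds. UNE15 was at -2.19, -0.79, -2.29 and -1.0 in GLK1-SRDX, at -7.09, -7.02, -6.14 and -6.15 in glk1 glk2 and between -2.0 and -1.58 in wild type (32.8-fold, adjusted p = 4.15e-05; 2 of 4 mutant arrays above background). CWINV5, a cell wall invertase by its name, showed another pattern. It was at -2.42, -3.69, -2.01 and -2.96 in GLK1-SRDX and dim elsewhere, above background on 1 of 4 mutant and 0 of 4 wild-type arrays (at least 22.4-fold, adjusted p = 0.000445). LTP4, a lipid transfer protein, was likewise above background on the 4 GLK1-SRDX arrays and on 0 of 4 mutant and 0 of 4 wild-type arrays (at least 3.67-fold, adjusted p = 0.0131). It passed the filter on dim probes through the GLK1-SRDX arrays alone. SUP, CWINV5, EXO70H3 and the salicylate marker PR1 also needed GLK1-SRDX arrays to reach the 4 arrays that the filter asks. The calls of these genes are therefore a description. MRU1 was 9.59-fold higher (adjusted p = 0.000332), with the mutant below wild type (-2.24, adjusted p = 0.00511) and GLK1-SRDX at 1.02 (adjusted p = 0.0534). EXO70H3, an exocyst subunit, was at least 1.95-fold higher (adjusted p = 0.0306; 0 of 4 mutant and 3 of 4 GLK1-SRDX arrays above background; up to 0.0914 without any of 6 single arrays).

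Genes without a symbol were among the largest rises too, and 4 of them are given here because they had the largest differences of that kind. AT1G13650 was 166-fold higher in GLK1-SRDX than in the mutant (adjusted p = 0.000247; 3 of 4 mutant arrays above background), AT1G14250 at least 62.1-fold (adjusted p = 2.20e-05), AT5G39520 47.6-fold (adjusted p = 0.000332) and AT5G35480 at least 38.3-fold (adjusted p = 9.85e-05). Against wild type AT1G14250 and AT5G35480 were lower in the mutant (adjusted p = 2.30e-05 and 8.33e-05; 2 and 3 of 4 mutant arrays above background) and stood at -0.10 and -0.35 in GLK1-SRDX (adjusted p = 0.888 and 0.626). AT5G39520 was raised in GLK1-SRDX instead (3.71, adjusted p = 0.00162), with the mutant at -1.87 (adjusted p = 0.0896).

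By the same rule the 12 largest fitted falls were in CRK4, TPS03, M17, CHAT, PDF1.2b, PRF4, SEP3, PDF1.3, PDF1.2c, PAB1, LEA3 and G3Pp2. CRK4, a cysteine-rich receptor-like kinase, was at -5.17, -7.01, -9.55 and -7.21 in GLK1-SRDX and at -2.86, -1.85, -2.04 and -2.29 in glk1 glk2, and wild type (-2.99 to -1.78) lay with the mutant. It was at least 21.8-fold lower (adjusted p = 0.00254; 2 of 4 GLK1-SRDX arrays above background; adjusted p = 0.0532 with the replicate block). TPS03, a terpene synthase, was at least 5.64-fold lower (adjusted p = 0.00546; 0 of 4), and CHAT, which makes the ester of a green leaf alcohol, at least 10.9-fold (adjusted p = 0.00518; 1 of 4). For both genes glk1 glk2 did not differ from wild type beyond the spread (0.30 and 1.05, adjusted p = 0.867 and 0.443), and GLK1-SRDX was lower than wild type (adjusted p = 0.00602 and 0.0162). PRF4, a profilin, was at least 5.73-fold lower (adjusted p = 0.0123; 2 of 4), PAB1, a poly(A)-binding protein, at least 3.75-fold (adjusted p = 0.0245; 1 of 4) and G3Pp2, a glycerol-3-phosphate permease by its name, at least 4.72-fold (adjusted p = 0.0195; 2 of 4). M17 was at least 13.9-fold lower (adjusted p = 0.0173; 2 of 4) and LEA3, a late embryogenesis abundant protein, 6.47-fold (adjusted p = 0.0161). The calls of M17, PAB1, LEA3 and G3Pp2 ended without any of 2, 4, 3 and 2 single arrays, among them GLK1-SRDX replicate 1 for each (adjusted p up to 0.0731).

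Of 111 called genes that were followed, 64 stayed under the threshold whichever of the 12 arrays was left out, and 27 in every alternative that measured them. The 111 are the called genes that the naming rule took or a list holds, and the genes without a symbol given above. PDF1.5 and the MEF, OTP and CRR genes named below are not among the 111. LHCB1.4, LHCB4.2, LHCB3, PSAE2, PSAE1, PETE1, RBCS2B, COR15A, FSD2, ICS1, DIN2, MRU1, UNE15 and SUP were among the 27, with GLK1 and GLK2.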

How the data were processed

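The deposited scanner files hold spot intensity from Agilent Feature Extraction 9.1.3.1, per the file headers, background-subtracted by that software and not scaled between arrays. The authors' deposited table of log-free values was the same intensity divided by 1 constant per genotype (974, 1077 and 892), and was used as an alternative. Here log2 of the processed signal minus each array's 75th percentile was taken for 37478 probes. The brightest probe stood for each locus. A locus was kept if well above background on 4 or more of 12 arrays with 3 or more unmarked spots per group, which left 20640. Symbols came from the TAIR10.1 gene table of RefSeq (9080 of these loci had one). All 12 arrays entered 1 fit (lmFit, then eBayes, of limma 3.58.1 under R 4.3.3, with Benjamini-Hochberg adjustment over all 20640 loci). The pipeline was tested on simulated data for this comparison, where 74% of 2-fold and 93% of 4-fold changes were recovered among 20640 genes, with 8 false calls of 175.

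The rule for naming took GLK1 and GLK2, the genes with a symbol and no overlap of arrays that had the 12 largest rises or the 12 largest falls, from every list as many as 3 that passed by size of change (failing that, its smallest p), and the ion channels KAT1, KAT2, AKT1, GORK and SLAC1 with OST1. Other genes were named after their values were seen. The members and the 27 lists were chosen with earlier results of these data known. Alternatives were normexp (on the median signal, as the files used here hold no mean signal), other scalings, filters, probe summaries, slide and replicate blocks, and leaving out each array. The deviations of same-numbered arrays of the lines correlated at -0.0079, 0.20, 0.58 and -0.096 for replicates 1 to 4, so not every pair moved together and pairing was not established. Promoter sequences were not analysed here.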

Additional observations from a re-analysis of the deposited data

Results flagged for a closer look

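In 21 of 293 sets of 4 arrays checked, the highest or lowest array stood apart from the other 3 by Dixon's criterion, where chance alone gives about 1 in 20. In glk1 glk2, replicate 3 was the low array for PORB (3.68), BCH1 (1.02), LHCA4 (6.0, against 6.52 to 6.61), LHCB5 (5.93), LHCB6 (6.25), AT1G74470 (5.31) and SOC1 (2.75), and the high array for HFR1 (-0.0789). The same array was low for the medians around wild type of the antenna list (-1.26, against -0.74 to -0.65) and the Calvin cycle list (-0.343, against 0.22 to 0.26). Replicate 4 of glk1 glk2 was low for EXO70H3 (-10.1) and high for AT5MAT (-6.71).

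In GLK1-SRDX, replicate 2 was the high array for the anthocyanin genes DFR (-3.84, against -5.01 to -4.83), UGT79B1 (-4.09) and TT19 (-3.60), and for the flavonoid list median (0.123, against -0.165 to -0.155). Replicate 4 was low for SUP (6.61) and high for PAD4 (-0.305). Replicate 3 was low for AT1G14250 (-2.12) and for the epidermis list median (-0.0266), and replicate 1 was low for TOC34 (0.921), a receptor of the plastid import machinery.

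Probes that the files tie to no locus, which the comparisons above do not use, were tested too. Of 4170 such probes 180 differed between the lines (4.32%, against 9.26% of loci), 100 of them higher in GLK1-SRDX and 80 lower.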

How the results depend on the processing

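GLK1 and GLK2, the genes mutated in glk1 glk2, stayed called in 24 of 24 alternatives. All calls between the lines numbered 288 with normexp (173 higher, 115 lower), 1205 with median scaling (746, 459), 1271 from the 8 arrays alone (462 lower) and 574 with the glk1 glk2 arrays of slide 2 only (396, 178). The authors' values shifted all genes by 0.28, so 90.5% of 1552 calls were higher, against 61.3%, and 148 were lower. Leaving out 1 array gave 1005 to 2684 calls (655 to 1493 higher, 350 to 1191 lower). With the replicate block there were 726 (449, 277), and 7 antenna, 3 guard-cell, 1 iron and 3 flowering genes; pairing by number was not established.

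Antenna genes called higher numbered 4 with normexp, 6 with median scaling, and 6 and 7 with slide 1 or slide 2 mutant arrays. Chlorophyll genes numbered 0, 3 and, for slide 2, 2. Guard-cell genes called lower numbered 0 with normexp, 3 with median scaling, 1 with the authors' values, 2 from 8 arrays and 1 for slide 2. Flavonoid genes numbered 0 with normexp and 1 with genes above background on all 12 arrays, iron genes 0 with normexp, 8 with the authors' values and 1 for slide 2, and flowering genes 4 in each of normexp, all 12 arrays and slide 2. Leaving out 1 array gave 6 to 11 antenna, 9 to 10 core, 3 to 10 chlorophyll, 2 to 6 guard-cell, 6 to 7 flavonoid, 1 to 10 iron and 4 to 8 flowering genes.

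With the authors' values, list medians were 0.88 (antenna), 0.75 (core), 0.79 (chlorophyll), 0.065 (guard cell), 0.53 (flavonoid) and -0.50 (flowering). The flavonoid median was -0.063 above background on all 12 arrays and 0.049 for slide 2, and the flowering median -0.36 with normexp and -1.02 and -1.13 for slides 1 and 2. Without 1 array, medians ran from 0.43 to 0.65 (antenna), 0.28 to 0.56 (core), 0.32 to 0.67 (chlorophyll), -0.25 to -0.18 (guard cell), 0.12 to 0.32 (flavonoid), 0.87 to 1.35 (iron) and -1.16 to -0.78 (flowering). SAG101 reversed to 0.051 for the mean of its probes (adjusted p = 0.782). The cause of these shifts was not tested. Dim probes limit the folds, which are bounds, or fitted values with the same limit, where a group was below background.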

Other observations

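Some genes with MEF, OTP or CRR symbols, which the lists above do not hold, were higher in GLK1-SRDX than in the double mutant. Many of the products are pentatricopeptide repeat proteins, which bind single RNA sites in mitochondria or chloroplasts. A shared symbol, as with CRR, does not make every product one of these proteins. The groups were picked by symbol after their values were seen, so their counts are a description. Of 13 measured MEF genes, named for mitochondrial editing factors, 8 were higher and 0 lower (median 0.51), beside 5.68% higher, 3.58% lower and a median of -0.0052 over all genes. MEF18 was 1.80-fold higher (limma adjusted p = 0.0116) and MEF9 1.70-fold (adjusted p = 0.00322), while MEF8 (0.13, adjusted p = 0.719) and MEF8S (-0.15, adjusted p = 0.381) did not pass. Against wild type 11 of the 13 were higher in GLK1-SRDX (median 0.78) and 2 in glk1 glk2 (median 0.19). Of 10 OTP genes, several of which edit chloroplast transcripts, 4 were higher and 0 lower, led by OTP81 (1.91-fold, adjusted p = 0.00168) and OTP80 (1.85-fold, adjusted p = 0.000764). Of 11 CRR genes 2 were higher, CRR2 and CRR22, 0 were lower and 9 did not pass. In alternatives added after seeing the data, 8 MEF genes were called with median scaling and with quantile normalization, 5 to 9 when 1 of the 8 arrays was left out, and 0 with normexp (median 0.32).

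Cysteine-rich receptor-like kinases, a family of cell-surface kinases that holds CRK4, had calls in both directions. Of 27 measured CRK genes 4 were lower in GLK1-SRDX, 2 were higher and 21 did not pass, with a median of -0.31, beside the same shares over all genes. This family too was picked by symbol after its values were seen.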
